A study of Mus musculus with 24 samples.

Results

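The genes described here are 33 genes of cholesterol and fatty acid synthesis, which were taken by gene symbol from all genes of the deposited tables (35275 identifiers for cultured cells and 54532 for tumors). They comprise 6 genes of the mevalonate steps, 11 of the squalene and sterol steps, 4 regulators of the SREBP transcription factors, 8 of fatty acid synthesis, 3 of polyunsaturated fatty acid synthesis and the sterol carrier Stard4. All 33 were listed in both tables and passed the expression filter in every comparison. RNA-seq was performed on 2 mouse mammary tumor lines, D2A1 and D2.1, which both arose from D2 hyperplastic alveolar nodules of BALB/c mice. D2A1 grows out rapidly, whereas D2.1 is used as a model of tumor dormancy. The groups were D2A1 and D2.1 cells in culture (3 libraries each), orthotopic mammary fat pad tumors of either line in immunocompetent BALB/c mice (4 each) and in SCID-beige mice (5 each), which lack T and B cells and have defective NK cells. The study used female hosts of 8 to 12 weeks, and whole tumors were collected at approximately 500 mm3 and snap frozen, so that each tumor library holds RNA of tumor and host cells. Neither the time in the host nor the host age at collection is given in the labels. In another experiment of the study, D2A1 tumors reached the volume of D2.1 tumors sooner after implantation. At a matched volume, line and time in the host therefore cannot be told apart. Each tumor type rests on a single cell line and the labels name no treatment. They also do not say whether the culture replicates were separate cultures, so that p-values measure the spread between these libraries, which may be technical for culture.

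Cells make cholesterol from acetyl-CoA through mevalonate, isoprenoid diphosphates, squalene and lanosterol, and make fatty acids from the same precursor through malonyl-CoA. When sterols in the endoplasmic reticulum are low, the escort protein SCAP carries SREBP precursors to the Golgi, where proteases release the active transcription factors. INSIG proteins hold SCAP back when sterols are plentiful. SREBP-2 mainly drives the sterol genes and SREBP-1c the fatty acid genes, and mammary epithelium is known for switching both on for milk fat in lactation.

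Promoter sequences from RefSeq (GRCm38.p6) were available for 26 of the 33 genes. The letters TCACNCCAC, a form of the sterol regulatory element, were searched on both strands of the window from 250 bases before to 50 bases after the start site. They stood in 1 of the 26 members (3.8%), Hmgcs1, and in 1.41% of 17492 protein-coding genes. The shorter CACNCCAC, which is part of the longer form, stood in 2 of 26 members (7.7%), Hmgcs1 and Insig1, and in 7.26% of all. CCAAT, the letters bound by NF-Y, was found on either strand in 22 of 26 members (84.6%) and in 42.3% of all promoters, and GGGCGG, a GC box, in 21 (80.8%) and 49.2%. A match is a description of the letters and not of a bound site. The 200 bases before the start site are shown for 4 genes that stand for the mevalonate, sterol and fatty acid branches, because they hold the 1 sterol regulatory element found and several CCAAT boxes. Capitals mark CCAAT or its complement ATTGG, and CACNCCAC. The windows are chr13:119690151-119690350, plus strand (Hmgcs1), chr8:122443423-122443622, minus strand (Mvd), chr8:64733579-64733778, minus strand (Msmo1) and chr11:120824548-120824747, minus strand (Fasn).
Hmgcs1: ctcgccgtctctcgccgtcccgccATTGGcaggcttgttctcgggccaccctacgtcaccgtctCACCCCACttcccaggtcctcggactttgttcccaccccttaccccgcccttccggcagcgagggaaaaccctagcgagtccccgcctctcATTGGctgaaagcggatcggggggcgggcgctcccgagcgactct
Mvd: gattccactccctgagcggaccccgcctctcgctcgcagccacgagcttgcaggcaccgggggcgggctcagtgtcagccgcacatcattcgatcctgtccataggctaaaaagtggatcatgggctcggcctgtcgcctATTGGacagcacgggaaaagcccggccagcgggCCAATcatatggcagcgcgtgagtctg
Msmo1: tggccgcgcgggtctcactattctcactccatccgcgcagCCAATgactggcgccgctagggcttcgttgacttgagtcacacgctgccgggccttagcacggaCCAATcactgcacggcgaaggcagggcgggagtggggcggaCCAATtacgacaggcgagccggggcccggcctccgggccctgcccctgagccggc
Fasn: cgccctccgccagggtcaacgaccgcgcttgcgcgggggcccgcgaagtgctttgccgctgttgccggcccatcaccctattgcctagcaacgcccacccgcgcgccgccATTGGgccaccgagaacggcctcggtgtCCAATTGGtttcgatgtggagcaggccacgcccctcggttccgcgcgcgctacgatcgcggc
The CCAAT letters stood 45 and 176 bases before the start of Hmgcs1 on the opposite strand, with the sterol regulatory element at 137 between them. In Msmo1 they stood 3 times, at 55, 96 and 160 bases before the start.

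The libraries held 16837260 to 24818234 counted reads in culture and 13566949 to 18355153 in tumors. Levels are given as CPM, counts scaled to a common library total, after TMM normalization over all 24 libraries. By the library totals alone, without the TMM factors, a floor of 3 counts corresponded to 0.121 to 0.178 CPM in culture and 0.163 to 0.221 in tumors. The gene lengths used for the tables differed, and the FPKM values of a gene cannot be compared between them. The epithelial markers Krt8, Krt18, Krt14, Cdh1 and Epcam were detected in every group, and their sum was 2492 to 5086 CPM in D2.1 cells, 139 to 363 in D2A1 cells and 368 to 1197 in tumors. Macrophage markers summed to 1.34 to 11.3 CPM in culture and 1527 to 3914 in tumors. Adipocyte markers (11 genes) summed to 53.2 to 861 CPM in D2.1 BALB/c tumors, 16.8 to 162 in D2.1 SCID-beige tumors, 102 to 429 in D2A1 BALB/c tumors and 59.8 to 242 in D2A1 SCID-beige tumors. T cell markers summed to 52.1 to 133 CPM in D2.1 BALB/c tumors, 5.38 to 18.1 in D2A1 BALB/c tumors, 5.05 to 13.01 in D2.1 SCID-beige tumors and 0.677 to 2.81 in D2A1 SCID-beige tumors. Endothelial markers (4 genes) summed to 67.8 to 114 and 45.1 to 79.3 CPM in D2.1 BALB/c and SCID-beige tumors, 171 to 227 and 154 to 227 in those of D2A1, and at most 0.821 in culture. In bulk tumors, fewer cells of a type and less RNA per cell cannot be told apart. Replicate 1 of the D2.1 BALB/c tumors stood apart with 491 CPM of milk genes, 332 of muscle genes and 861 of adipocyte genes, and replicate 4 with 117 CPM of skin genes and 58.5 of milk genes. Calls on D2.1 BALB/c tumors are therefore also given without both.

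The lines were first compared in culture. Of the 33 genes, 30 were higher in D2.1 cells and 0 were lower, by edgeR's quasi-likelihood test at a Benjamini-Hochberg adjusted p under 0.05 over 12489 genes. Of all genes tested, 24.2% were higher and 20.7% were lower. By DESeq2 and at an unadjusted p under 0.05, 0 members were lower as well. Over the 33 genes the median was 1.33 on the log2 scale, beside -0.02 over all genes tested. In 30 genes all D2.1 libraries were above all D2A1 libraries, as in 28.9% of 12439 genes, while the reverse was seen in 0 members and 26.6% of genes. All 6 genes of the mevalonate steps were higher in D2.1 (median log2 fold change 1.90), as were 9 of 11 of the squalene and sterol steps (1.48), 4 of 4 regulators (0.96), 7 of 8 of fatty acid synthesis (0.70) and 3 of 3 of polyunsaturated fatty acid synthesis (1.23). The 3 genes that did not pass were Sqle (-0.23 ± 0.14, SE, adjusted p = 0.213), Ebp (0.11 ± 0.17, 0.64) and Acaca (0.30 ± 0.14, 0.107).

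**Figure D1:**
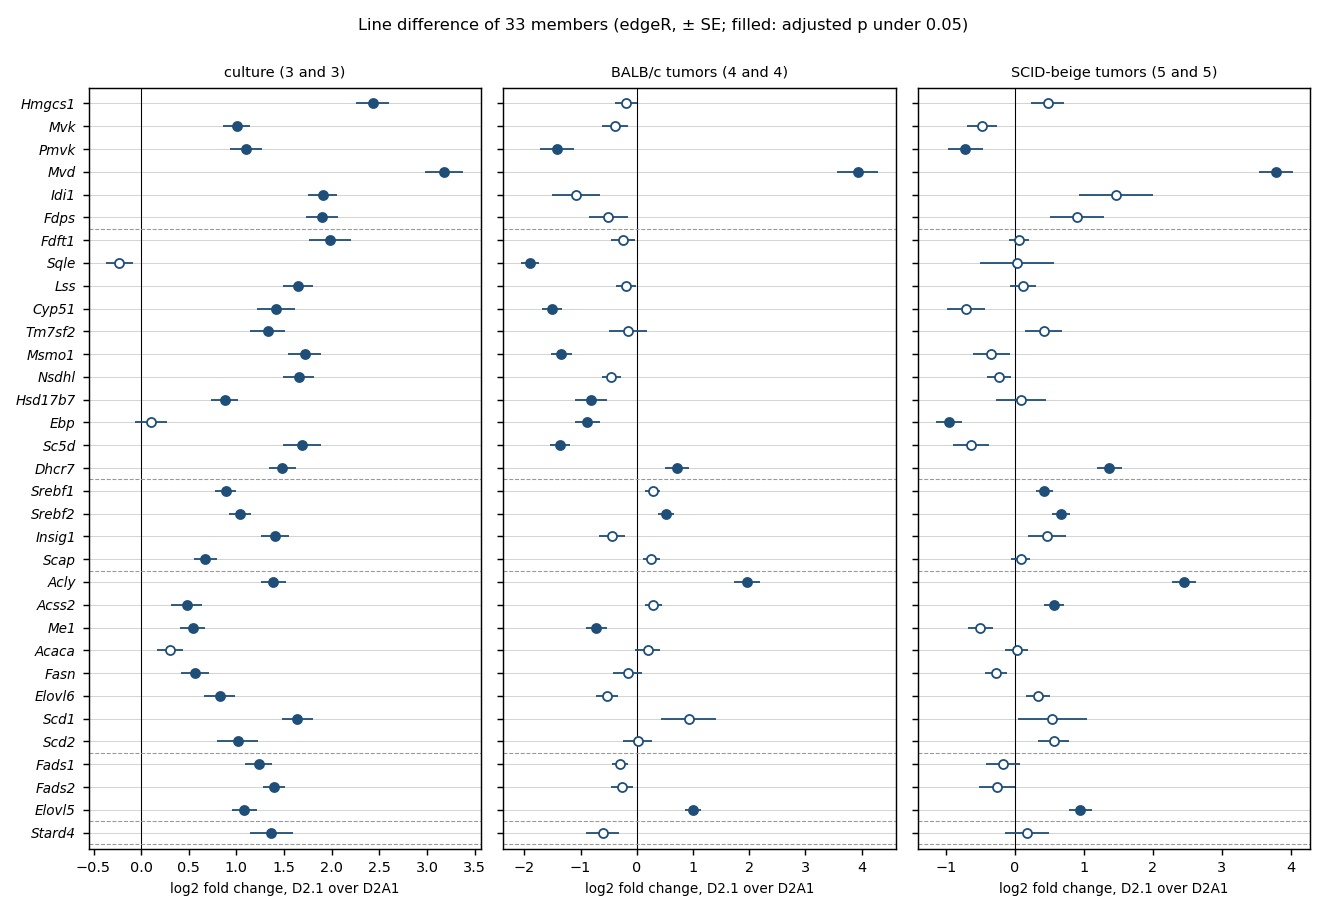
Log2 fold change of D2.1 over D2A1 (edgeR, x axis, with bars of 1 SE) for each of the 33 genes (rows, in pathway order, dashed lines between the lists) in culture, BALB/c tumors and SCID-beige tumors, with its own x axis in each panel. Filled points had an adjusted p under 0.05, which are 30 genes in culture, 13 in BALB/c tumors and 9 in SCID-beige tumors.

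Mevalonate diphosphate decarboxylase (Mvd, ENSMUSG00000006517), the last step before the isoprenoid units, had the largest line difference. Its level was 505, 389 and 335 CPM in the D2.1 cultures and 52.8, 44.0 and 37.6 in the D2A1 cultures. Every D2.1 library was above every D2A1 library by several fold, with a log2 fold change of 3.18 ± 0.20 (SE), a 9.08-fold difference (adjusted p = 5.61e-06, edgeR). Hmgcs1 (ENSMUSG00000093930), which makes HMG-CoA at the entry of the pathway, had 460.4, 499 and 353 CPM in D2.1 and 77.0, 70.7 and 93.8 in D2A1. The groups did not overlap, with a log2 fold change of 2.43 ± 0.17 (adjusted p = 1.11e-05, edgeR). The isomerase Idi1 had 115, 138 and 110.1 CPM in D2.1 and 28.2, 30.7 and 37.1 in D2A1 (1.91 ± 0.15). Farnesyl diphosphate synthase (Fdps) had 787, 769.5 and 530.3 CPM in D2.1 and 183, 186 and 187 in D2A1 (1.90 ± 0.17). Both were higher in all D2.1 libraries. The kinases Mvk and Pmvk differed less, with log2 fold changes of 1.01 ± 0.14 and 1.10 ± 0.17.

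Of the sterol genes, squalene synthase (Fdft1), the first committed step to sterols, had 261, 284 and 154 CPM in D2.1 and 63.3, 61.7 and 50.4 in D2A1 cells. It was higher in all D2.1 libraries, least in replicate 3 (log2 fold change 1.98 ± 0.22, adjusted p = 1.55e-04, edgeR). Squalene epoxidase (Sqle, ENSMUSG00000022351), a rate-limiting step after it, had 337, 380.2 and 290.2 CPM in D2.1 and 376, 371 and 423 in D2A1, and these ranges overlapped. The next enzymes were higher in D2.1 again. Lanosterol synthase (Lss) had a log2 fold change of 1.65 ± 0.16 and the lanosterol demethylase Cyp51 one of 1.41 ± 0.20, with Cyp51 at 451, 549.7 and 297 CPM in D2.1 and 159, 159 and 164 in D2A1. For the C4 demethylation enzymes, values were 1.72 ± 0.17 for Msmo1, 1.65 ± 0.16 for Nsdhl and 0.88 ± 0.14 for Hsd17b7. The sterol reductase Tm7sf2 was higher by 1.33 ± 0.19, the desaturase Sc5d by 1.69 ± 0.20 and Dhcr7, which makes cholesterol from 7-dehydrocholesterol, by 1.48 ± 0.14. The isomerase Ebp overlapped between the lines (99.8, 105 and 67.0 CPM in D2.1 and 87.6, 83.5 and 79.2 in D2A1).

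The regulators were also higher in D2.1 cells. Srebf2, which encodes SREBP-2, had 382, 419 and 391 CPM in D2.1 and 196, 184 and 197 in D2A1 (log2 fold change 1.04 ± 0.11, adjusted p = 1.32e-04, edgeR). Srebf1, which encodes the SREBP-1 forms, differed by 0.89 ± 0.11 and Scap by 0.67 ± 0.12. Insig1, the sterol sensor partner that is itself an SREBP target, had 208, 201 and 151 CPM in D2.1 and 66.0, 66.5 and 78.0 in D2A1 (1.40 ± 0.15). Stard4, which moves cholesterol between membranes, differed by 1.37 ± 0.23 (adjusted p = 0.00134, edgeR). All 5 had no overlap between the lines.

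Among the fatty acid genes, ATP citrate lyase (Acly), which supplies acetyl-CoA to both branches, had 933, 876 and 884 CPM in D2.1 and 343, 341 and 338 in D2A1 (log2 fold change 1.39 ± 0.13, adjusted p = 4.35e-05, edgeR). The replicates lay close together in both lines. The stearoyl-CoA desaturase Scd1, which makes oleate, had 761, 874 and 636 CPM in D2.1 and 225, 223 and 275 in D2A1 (1.64 ± 0.16). Its paralog Scd2, with which reads may be shared, differed by 1.01 ± 0.21 and was at 2210.1 to 2828 CPM in D2.1. Fatty acid synthase (Fasn), the enzyme of the core cycle, differed less, at 1192, 1406 and 1178 CPM in D2.1 and 837, 792 and 898 in D2A1 (0.57 ± 0.15, adjusted p = 0.0129, edgeR). The fold of Fasn was 1.48, and the call was lost without D2A1 replicate 1 (0.56, adjusted p = 0.0671) or replicate 2 (0.52, adjusted p = 0.072). The elongase Elovl6 differed by 0.83 ± 0.16, malic enzyme (Me1), a source of NADPH, by 0.54 ± 0.13, and acetyl-CoA synthetase (Acss2) by 0.48 ± 0.16 (adjusted p = 0.0405, edgeR). The Acss2 call was lost when any library other than D2A1 replicate 3 was left out (adjusted p 0.0544 to 0.165). Acetyl-CoA carboxylase (Acaca), the first committed step of fatty acid synthesis, was at 204 to 259 CPM in D2.1 and 172 to 210.1 in D2A1, and was called higher without D2A1 replicate 3 (0.39, adjusted p = 0.0449) and in the fit with the replicate number as a block (adjusted p = 0.0175). The desaturases Fads1 and Fads2 and the elongase Elovl5, which make long polyunsaturated fatty acids, differed by 1.23 ± 0.14, 1.40 ± 0.12 and 1.08 ± 0.13.

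**Figure D2:**
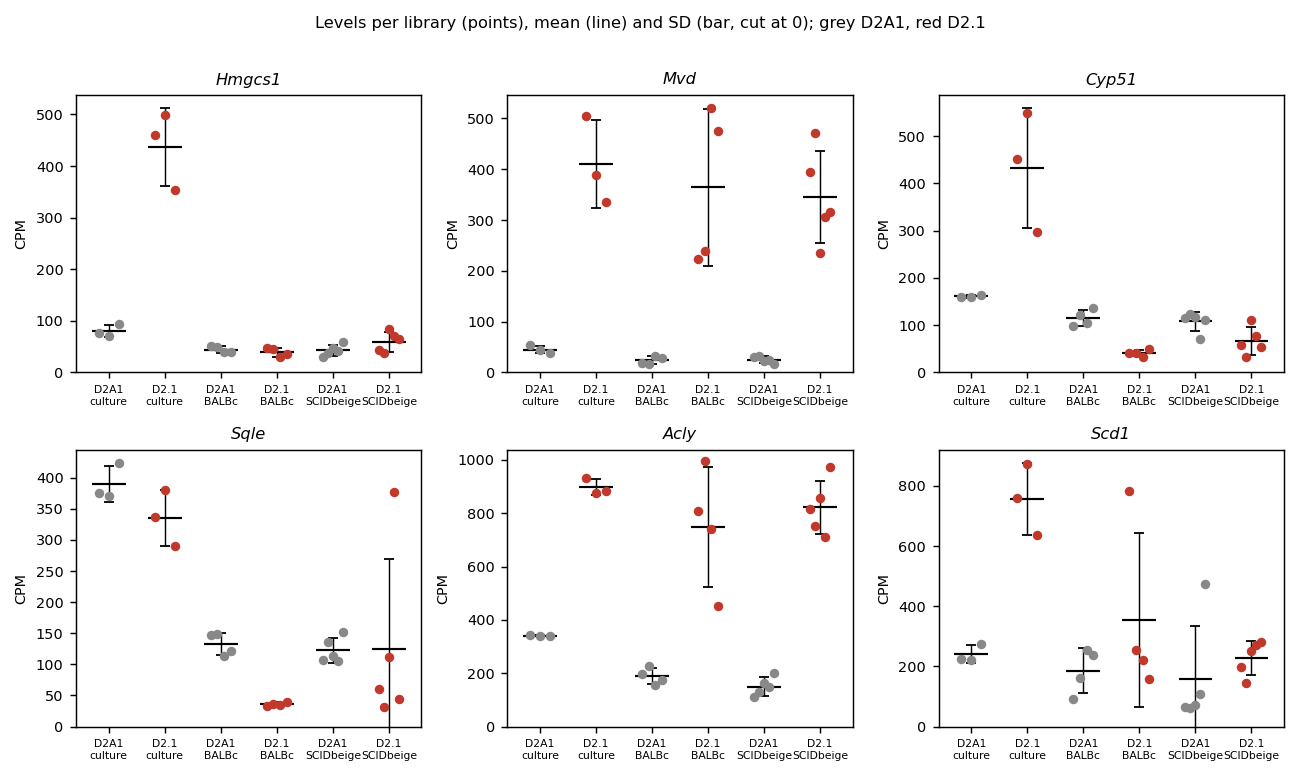
CPM (y axis, from 0) of 6 genes in each of the 24 libraries (points, grey for D2A1 and red for D2.1) by group (x axis), with the group mean (line) and SD (bar, cut at 0). Mvd and Acly were higher in D2.1 in all 3 settings, Hmgcs1 and Cyp51 were highest in D2.1 cultures, and 1 D2.1 SCID-beige tumor was high for Sqle and 1 tumor of either line for Scd1.

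In BALB/c tumors, 5 of the 33 genes were higher in D2.1 and 8 were lower (edgeR, adjusted p under 0.05 over 14953 genes), where 16.8% of all genes tested were higher and 15.8% lower. On the log2 scale, the members' median was -0.26, beside -0.02 over all genes. With both D2.1 tumors that held milk or skin transcripts left out, an alternative chosen after seeing the data, 5 were higher and 6 lower (11.1% and 10.2% of all genes), and the calls lost were those of Pmvk (-1.34, adjusted p = 0.055) and Hsd17b7 (-0.91, 0.129, edgeR). Same-numbered libraries deviated together in this comparison, but differently numbered ones were not compared, so that pairing by number was not shown. With the replicate number as a block 5 were higher and 14 lower, where calls over all genes rose to 22.8% higher and 24.8% lower. Those gained, all lower, were Mvk (adjusted p = 0.0274), Idi1 (0.00539), Nsdhl (0.0133), Insig1 (0.0329), Elovl6 (0.00338) and Stard4 (0.00829).

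Mvd again differed most. It had 223, 239, 520.4 and 475 CPM in D2.1 BALB/c tumors and 19.0, 15.9, 31.7 and 28.6 in D2A1 tumors, with every D2.1 tumor above every D2A1 tumor (log2 fold change 3.93 ± 0.36, a 15.2-fold difference, adjusted p = 2.58e-05, edgeR). None of the other 5 genes of the mevalonate steps was higher in D2.1. Hmgcs1 had 47.5, 45.2, 28.8 and 34.8 CPM in D2.1 and 50.6, 48.7, 38.5 and 38.9 in D2A1, ranges that overlapped (-0.19 ± 0.20, adjusted p = 0.492, edgeR). Pmvk was lower in D2.1 (12.6, 8.95, 21.2 and 12.4 CPM against 26.3, 28.4, 46.3 and 46.5, -1.43 ± 0.30, adjusted p = 0.00491, edgeR).

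Of the squalene and sterol steps, 6 of 11 were lower in D2.1 BALB/c tumors and only Dhcr7 was higher. Sqle had 32.6, 36.7, 34.1 and 39.5 CPM in D2.1 and 146, 148, 113 and 122 in D2A1. All 4 D2.1 tumors were below the lowest D2A1 tumor (log2 fold change -1.91 ± 0.16, adjusted p = 1.18e-05, edgeR). Cyp51 had 40.9, 41.8, 31.6 and 48.7 CPM in D2.1 and 97.3, 120.3, 105 and 136 in D2A1 (-1.51 ± 0.18), and the groups did not overlap. Msmo1 (-1.34 ± 0.19), Sc5d (-1.37 ± 0.18) and Ebp (-0.88 ± 0.22) were lower without overlap as well. Hsd17b7 was lower as well (-0.82 ± 0.28, adjusted p = 0.0488, edgeR), a call lost without any 1 of 7 tumors, the exception being D2.1 replicate 2 (adjusted p 0.059 to 0.138). Dhcr7 was higher (39.8, 55.7, 59.4 and 43.0 CPM against 26.4, 23.9, 26.6 and 42.2, 0.72 ± 0.22, adjusted p = 0.0276), with overlap, and lost its call without D2.1 replicate 2 or 3 or D2A1 replicate 1, 2 or 3 (adjusted p 0.0522 to 0.0794). Without D2.1 replicate 2, Idi1 (-1.30, adjusted p = 0.0459) and Elovl6 (-0.66, adjusted p = 0.035) were called lower, and Nsdhl without D2.1 replicate 4 (-0.55, adjusted p = 0.0411).

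Among the remaining members, Acly was at 808, 995, 739.6 and 454 CPM in D2.1 BALB/c tumors and 197, 227, 156 and 175 in D2A1 tumors, without overlap (log2 fold change 1.96 ± 0.23, adjusted p = 1.31e-04, edgeR). Elovl5 had 132, 119, 129 and 152 CPM in D2.1 and 65.2, 71.4, 57.9 and 69.5 in D2A1 (0.997 ± 0.15). Srebf2 was higher in D2.1 by 0.51 ± 0.14, a call lost without D2A1 replicate 1 or 4 (adjusted p 0.0528 to 0.0585). Me1 was lower (-0.72 ± 0.19, adjusted p = 0.0131, edgeR). Scd1 had 781, 255, 223 and 157 CPM in D2.1 and 91.7, 161, 253 and 239 in D2A1, overlapping ranges in which replicate 1 of D2.1, the tumor with the highest sum of adipocyte markers, was the highest. Of the 11 adipocyte markers, 10 were tested between the lines and 0 passed (edgeR; 3 at an unadjusted p under 0.05, all higher in D2.1), and their part in the Scd1 level was not tested. Fasn (-0.17 ± 0.25), Acaca (0.19 ± 0.22) and Scd2 (0.02 ± 0.26) did not pass.

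In SCID-beige tumors, 7 genes were higher in D2.1 and 2 were lower (edgeR, adjusted p under 0.05 over 14355 genes), where 17.2% of all genes tested were higher and 14.8% lower. On the log2 scale, the members' median was 0.12, beside 0.02 over all genes. Mvd had 395, 471, 236, 307 and 315 CPM in D2.1 and 30.9, 31.2, 21.4, 24.8 and 16.2 in D2A1, again without overlap (3.78 ± 0.24, a 13.7-fold difference, adjusted p = 1.35e-07, edgeR). Acly had 817, 753, 856, 713 and 972 CPM in D2.1 and 111, 128, 162, 148 and 201 in D2A1 (2.45 ± 0.17, adjusted p = 3.24e-07, edgeR). The lowest D2.1 tumor was more than 3 times as high as the highest D2A1 tumor. Dhcr7 (71.1, 61.0, 78.5, 46.2 and 45.3 CPM against 22.8, 24.6, 24.8, 20.6 and 23.6) was higher by 1.37 ± 0.18, without overlap. Elovl5 (0.95 ± 0.17), Srebf2 (0.67 ± 0.13), Acss2 (0.57 ± 0.14) and Srebf1 (0.43 ± 0.12) were higher and did not overlap, the last losing its call without D2A1 replicate 1 (0.40, adjusted p = 0.0511). Ebp was lower, at 56.9, 71.0, 60.5, 59.7 and 51.8 CPM in D2.1 and 147, 154, 101, 92.3 and 81.8 in D2A1 (-0.95 ± 0.19, adjusted p = 0.00206, edgeR). Pmvk was lower (-0.72 ± 0.26, adjusted p = 0.0457), with overlap, and lost its call without any 1 of 7 of the 10 tumors, all but D2.1 replicates 1 and 3 and D2A1 replicate 5 (adjusted p 0.0504 to 0.106).

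Several members of D2.1 SCID-beige tumors varied widely among the replicates. Sqle had 61.1, 32.1, 112, 377 and 44.3 CPM in D2.1 and 107, 135, 114, 105 and 152 in D2A1. Replicate 4 of D2.1 was far above the other 4, and its log2 fold change, 0.03 ± 0.53 in all tumors, became -1.04 without it (adjusted p = 0.0171, edgeR). Idi1 had 7.39, 4.75, 24.9, 12.7 and 9.40 CPM in D2.1 and 1.15, 1.47, 5.37, 4.80 and 8.49 in D2A1 (1.47 ± 0.54, adjusted p = 0.0525, edgeR), and was called higher without D2.1 replicate 2 (1.63, adjusted p = 0.039) or D2A1 replicate 5 (1.88, adjusted p = 0.0223). Replicate 3 of D2.1 was the highest tumor of its group for 9 of the 17 mevalonate and sterol genes and replicates 2 and 5 were each the lowest for 7. Cyp51, Sc5d and Me1 were called lower in D2.1 without replicate 3 (-0.97, adjusted p = 0.00937 for Cyp51) or replicate 4 (-0.82, adjusted p = 0.0484), Cyp51 also without D2A1 replicate 4 (-0.83, adjusted p = 0.0405), Me1 without D2A1 replicate 1 (-0.59, adjusted p = 0.0424) or 2 (-0.58, adjusted p = 0.0377), and Mvk without D2.1 replicate 1 (-0.63, adjusted p = 0.0467). Scd1 had 198, 146, 251, 269 and 280.3 CPM in D2.1 and 65.8, 63.2, 71.6, 109.5 and 475 in D2A1, where replicate 5 was above all D2.1 tumors. Without that tumor, which was also the highest of its group for 9 of the 11 fatty acid genes and for adipocyte markers (242 CPM), Scd1 was higher in D2.1 (1.55, adjusted p = 2.26e-04), as were Scd2 (0.67, adjusted p = 0.045) and Insig1 (0.72, adjusted p = 0.0475). The part of the adipocyte transcripts in this was not tested.

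**Figure D3:**
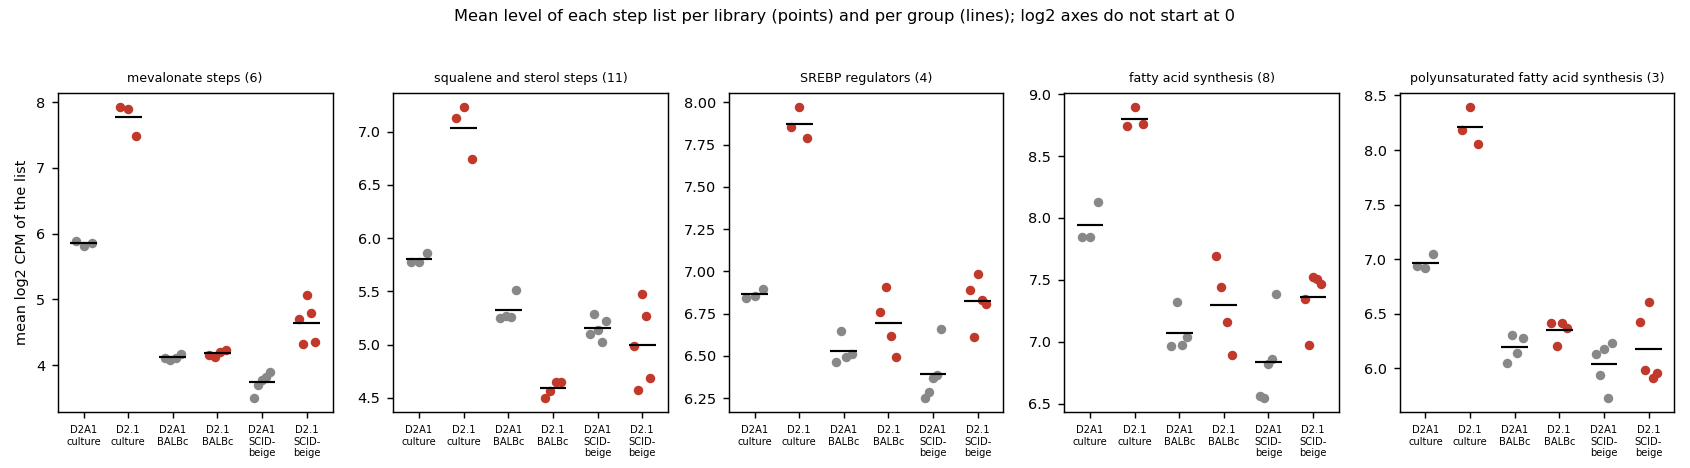
Mean log2 CPM of the genes of 5 step lists (number of genes in each panel title) in each library (points, grey for D2A1 and red for D2.1) and group (lines), on log2 axes that do not start at 0. D2.1 cultures were the highest group in each list, and D2.1 BALB/c tumors lay below D2A1 BALB/c tumors for the squalene and sterol steps.

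Whether the line difference in SCID-beige tumors differed from that in culture was tested by the interaction of line and setting. In this test a shift by the same factor in both lines cancels. Host RNA added to the tumors of both lines is not such a shift and does not cancel. Of the 33 genes, 14 had a smaller or opposite D2.1 excess in tumors (lower) and 1 a larger one (higher), by edgeR at an adjusted p under 0.05 over 15077 genes, where 8.18% of all genes were lower and 4.62% higher. The median of the members was -0.93, beside -0.02 over all genes. The largest differences were those of Sc5d (-2.31 ± 0.39, adjusted p = 4.37e-04), Cyp51 (-2.12 ± 0.41, 0.00155), Msmo1 (-2.04 ± 0.39, 0.00138) and Hmgcs1 (-1.95 ± 0.34, 6.62e-04, edgeR). Fdft1 (-1.91 ± 0.25), Nsdhl (-1.87 ± 0.25), Lss (-1.51 ± 0.26), Pmvk (-1.80 ± 0.36), Mvk (-1.46 ± 0.30), Fads2 (-1.64 ± 0.36), Fads1 (-1.40 ± 0.36), Ebp (-1.04 ± 0.29), Me1 (-1.03 ± 0.26) and Fasn (-0.83 ± 0.23) were lower as well. Acly was the gene whose D2.1 excess was larger in tumors (1.06 ± 0.23, adjusted p = 0.00462, edgeR). For Mvd the difference was 0.62 ± 0.33 (adjusted p = 0.274), for Dhcr7 -0.11 ± 0.26 (0.87) and for Elovl5 -0.12 ± 0.24 (0.831, edgeR), and these 3 genes, like Acly and Srebf2, were higher in D2.1 in all 3 settings. The calls of Ebp (adjusted p 0.0557 to 0.0744) and Fasn (0.0628 to 0.0734) were lost without single culture libraries, for Ebp D2A1 replicate 2 or 3 or D2.1 replicate 1 or 2, and for Fasn D2A1 replicate 1 or 2 or D2.1 replicate 2. Calls were gained for Scap without D2.1 SCID-beige replicate 1 (-0.65, adjusted p = 0.0325) and for Stard4 and Hsd17b7 without replicate 3 (-1.48, adjusted p = 0.0215 and -1.23, adjusted p = 0.0267). Fdps, whose levels cannot be set across the tables, was called lower without D2.1 SCID-beige replicate 4 (-1.18, adjusted p = 0.0394, edgeR). Markers of host cells and of the lines moved as well: 3 of 4 endothelial markers (median -3.58), 1 of 7 macrophage markers (-2.80) and 3 of 5 epithelial markers (-3.55), which the lines themselves express, were lower in this interaction, and 0 of each were higher. In D2A1 culture, 4 of 4 endothelial and 6 of 7 macrophage markers had at most 3 counts in any library, so that their interactions rest on culture levels near 0. Between the lines in SCID-beige tumors alone, 3 of 7 macrophage markers were higher in D2.1 and 0 lower, and 3 of 4 endothelial markers were lower and 0 higher. The part of all these markers in the members' values was not tested.

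Tumors were then compared with culture for each line, with the raw counts of both tables joined. Setting, host cells, library run and the gene models used in counting cannot be told apart in this comparison. In D2.1, 29 genes were lower in SCID-beige tumors than in culture and 0 were higher (edgeR, adjusted p under 0.05 over 14111 genes), where 22.3% of all genes were lower and 30.8% higher. In D2A1, 24 were lower and 0 higher, where 24.5% of all 13869 genes were lower and 33.6% higher. By DESeq2 and at an unadjusted p under 0.05, 0 members were higher in either line as well. Without Fdps, whose levels cannot be set across the tables, 28 and 23 of 32 were lower. On the log2 scale, the members' median was -1.75 in D2.1 and -0.91 in D2A1, beside 0.09 and 0.10 over all genes, and it was -1.75 and -0.88 without Fdps.

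In D2.1, Hmgcs1 fell from 437 ± 75.5 CPM (mean ± SD, n = 3) in culture to 59.6 ± 19.5 in SCID-beige tumors (n = 5), with a log2 fold change of -2.86 ± 0.25 (adjusted p = 5.98e-06, edgeR). In D2A1 it fell from 80.5 ± 11.9 to 42.7 ± 10.3 (-0.92 ± 0.20, adjusted p = 0.00244, edgeR). Idi1 fell in both lines (-3.34 ± 0.41 in D2.1 and -2.91 ± 0.49 in D2A1), as did Msmo1 (-2.94 ± 0.33 and -0.91 ± 0.15), Insig1 (-2.16 ± 0.23 and -1.24 ± 0.29), Fasn (-1.995 ± 0.17 and -1.18 ± 0.16) and Elovl6 (-2.26 ± 0.18 and -1.79 ± 0.16). The 4 genes that did not pass in D2.1 were Mvd (-0.23 ± 0.22), Acly (-0.11 ± 0.15), Scap (-0.30 ± 0.16) and Sqle (-1.40 ± 0.67), of which Sqle was lower without D2.1 SCID-beige replicate 4 (-2.41, adjusted p = 3.12e-04). Mvd and Acly fell in D2A1 (-0.86 ± 0.23 and -1.19 ± 0.18). Sqle also fell in D2A1 (-1.68 ± 0.15), with 371 to 423 CPM in culture and 105 to 152 in tumors. The Ebp call in D2.1 (-0.58 ± 0.18) was lost without culture replicate 1 or 2 (adjusted p 0.0744 to 0.0915).

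**Figure D4:**
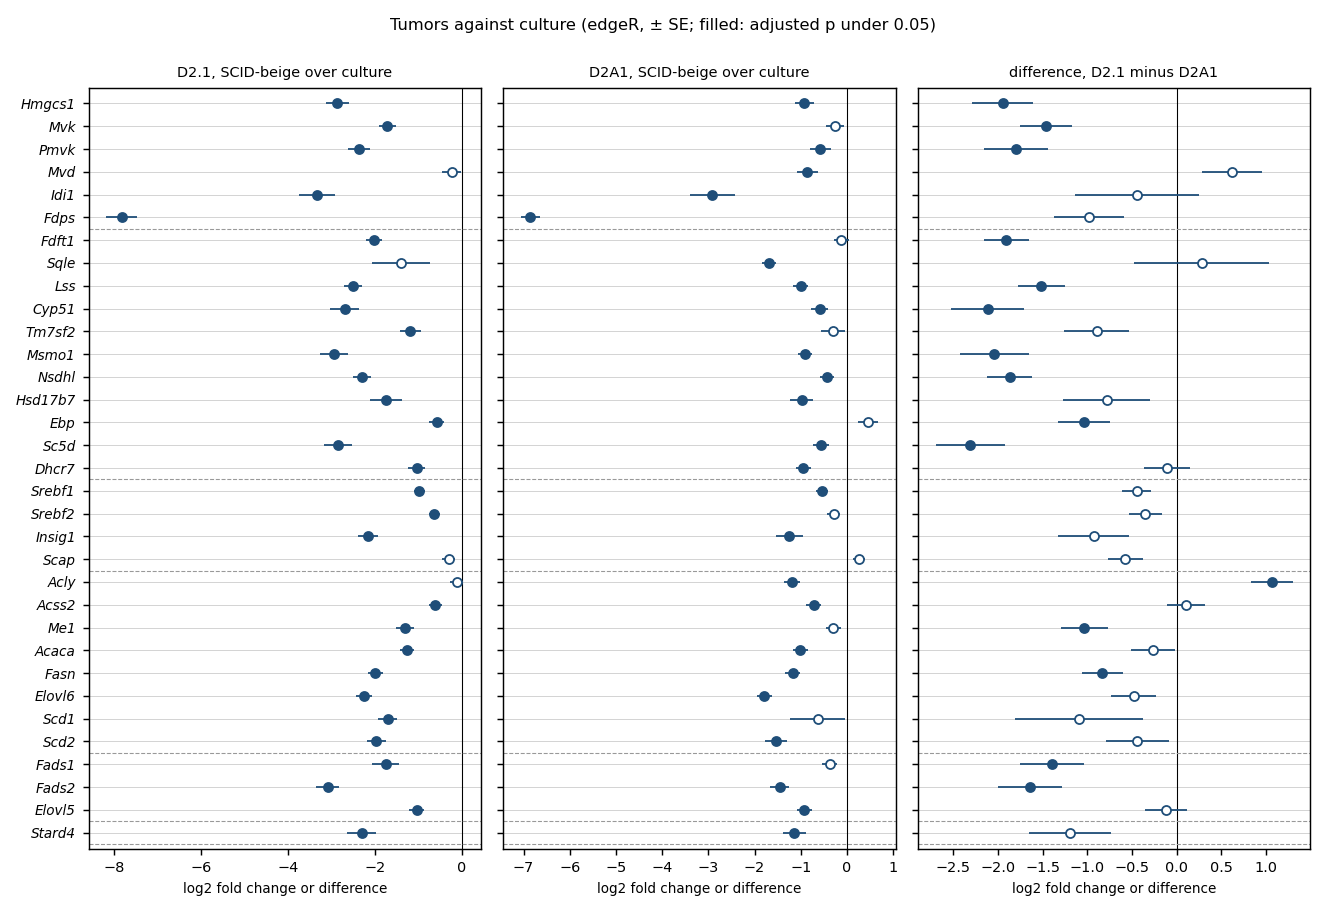
Log2 fold change (edgeR, x axis, with bars of 1 SE) of SCID-beige tumors over culture for D2.1 and for D2A1, and the difference of both (D2.1 minus D2A1), for each of the 33 genes (rows), with filled points for an adjusted p under 0.05. The values lie below 0 for all 33 genes in D2.1 and for 31 in D2A1, and Fdps, at the far left of the first and second panels, cannot be read across the tables.

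Same-numbered libraries also deviated together between D2A1 culture and SCID-beige tumors, and with the replicate number as a block 27 genes were lower and 2 higher, where 30.5% of all genes were lower and 36.6% higher. The genes gained were Scd1 (adjusted p = 1.51e-08), Me1 (0.00924), Srebf2 (0.0118), Fads1 (0.0134), lower, and Ebp (8.42e-04) and Scap (0.0449), higher, and Nsdhl was lost (0.0555). Tumor replicates 4 and 5 had no culture library of their number, so that they did not weigh in the difference of the blocked fit. In the fit without the block, leaving out D2A1 SCID-beige replicate 5 brought Scd1 (-1.63, adjusted p = 5.07e-05), Me1 (-0.39, adjusted p = 0.0293), Srebf2 (-0.37, adjusted p = 0.0272) and Ebp (0.56, adjusted p = 0.0289) past the threshold. The gains of these genes in both fits are therefore not separate results. Mvk was gained without replicate 2 (-0.41, adjusted p = 0.0493) and Fads1 without replicate 3 (-0.43, adjusted p = 0.0431). The calls of Pmvk (adjusted p 0.0684 to 0.161) and Nsdhl (0.0534 to 0.1) were lost without single libraries, for Pmvk any but tumor replicate 2, for Nsdhl tumor replicate 3 or 4 or any culture replicate, and that of Sc5d without culture replicate 3 (-0.42, adjusted p = 0.0829).

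Fdps cannot be read across the tables. It had 183 to 187 CPM in D2A1 and 530.3 to 787 in D2.1 cultures, but 1.07 to 2.21 and 1.47 to 4.46 in the SCID-beige tumors, the lowest level of all 33 genes in tumors. On the same strand, Fdps shares 1124 of its 4208 exon bases with Gm43738, a protein-coding gene model listed for tumors and not for cultured cells, which had 0 to 2 counts per tumor. The part of the gene model in the Fdps level was not tested. Tm7sf2 shares 532 exon bases with Vps51 on the same strand, and Fdft1 shares 774 with the abundant Ctsb on the opposite strand. Other members share exon bases on the opposite strand, among them Cyp51 (166 with Akap9) and Acss2 (395 with Gss). Hmgcs1 shares 557 with Gm48342, Idi1 323 with Gm48574 and Elovl6 34 with Gm35986, gene models listed for tumors and not for cultured cells. These models had 0 to 8, 0 to 1 and 0 to 4 counts per tumor. Whether counting used the strand is not given in the sources used here, so that the levels of all these genes are uncertain. The part of the shared bases in the falls from culture to tumors was not tested.

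Between the hosts, 0 of the 33 genes passed in either line by edgeR, and 7 in D2.1 and 2 in D2A1 had an unadjusted p under 0.05, as had 9.97% and 10.1% of all genes. By adjusted p, 0.871% of all genes were higher and 0.0201% lower in BALB/c than in SCID-beige tumors of D2.1, and 0.906% and 0.261% in tumors of D2A1. DESeq2 called 1 member in D2.1, Idi1 (-1.53, adjusted p = 0.0239, DESeq2), and 0 in D2A1, where it called 3.12% and 2.83% of all genes. Idi1 was at 5.26, 5.86, 2.34 and 2.56 CPM in D2.1 BALB/c tumors and 7.39, 4.75, 24.9, 12.7 and 9.40 in D2.1 SCID-beige tumors, overlapping ranges (-1.53 ± 0.47, adjusted p = 0.204, edgeR). The members had a median log2 fold change of -0.13 in D2.1 and 0.13 in D2A1, beside -0.01 and 0.01 over all genes. Without both D2.1 BALB/c tumors that stood apart, 0 members were called in D2.1 and 0 in the interaction that follows. The interaction of line and host was called for 0 members by edgeR and 0 by DESeq2, and for 0.0187% and 0.647% of all genes. At an unadjusted p under 0.05 there were 9 members and 8.45% of all genes. The smallest p-values were those of Idi1 (-2.54 ± 0.77, unadjusted p = 0.0036) and Elovl6 (-0.87 ± 0.26, 0.00325), with edgeR adjusted p of 0.344 and 0.332. The line differences in BALB/c and in SCID-beige tumors were not shown to differ for any of the 33 genes at this number of tumors.

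Compared per length by the deposited FPKM within each table, Fdps (517 FPKM, median) and Scd2 (381) were the highest members in D2.1 cultures, and Scd2 (191) and Fdps (142) in D2A1 cultures. In D2.1 tumors, Acly (332 in BALB/c and 339 in SCID-beige) and Mvd (195 and 171) were the highest. In D2A1 tumors, Ebp (132 and 111) and Fasn (118 and 106) were the highest, and Mvd was at 14.3 and 14.6. Hsd17b7 and Tm7sf2 were among the lowest in every group. With CPM divided by the exon length of the GENCODE M21 annotation in place of FPKM, Scd2 came before Fdps in D2.1 cultures, Mvd before Acly in D2.1 tumors and Scd2 before Ebp in D2A1 tumors.

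Within groups, the members moved together in some libraries. In D2.1 cultures, replicate 3 was the lowest for 16 of the 17 mevalonate and sterol genes, at a mean of -0.29 on the log2 scale from the group mean, and replicate 2 was the highest for 12. In D2.1 SCID-beige tumors the mean deviation ran from -0.39 in replicate 2 to 0.46 in replicate 3. In D2.1 and D2A1 BALB/c tumors it stayed between -0.07 and 0.14. The 11 fatty acid genes ranged from -0.29 in replicate 4 to 0.31 in replicate 1 of the D2.1 BALB/c tumors, and replicate 4 was the lowest for 7 of them.

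The high Sqle level of D2.1 SCID-beige replicate 4 stood among high levels of genes around it on chromosome 15. Sqle was at 377 CPM there and at 32.1 to 112 in the other 4 tumors of the group, 7.15 times their median. The adjacent Washc5 was at 533 CPM against 109 to 146, Mtss1 at 222 against 28.0 to 92.7, and Derl1 at 635 against 155 to 197. These genes were chosen after their values were seen. Of the 26 protein-coding genes within 4 Mb of Sqle with a mean of at least 5 CPM, Sqle included, replicate 4 was above the other 4 tumors in 21, and at least 2 times their median in 17. Over all 10877 genes of that level, these shares were 22.2% and 2.71%. Nsmce2, the next gene after Washc5, was at 29.6 CPM against 26.8 to 32.6. Replicate 4 also had the highest sums of epithelial (1197 CPM) and muscle markers (248) of its group and the lowest of macrophage markers (1527). The part of this cell mix in these levels was not tested.

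**Figure D5:**
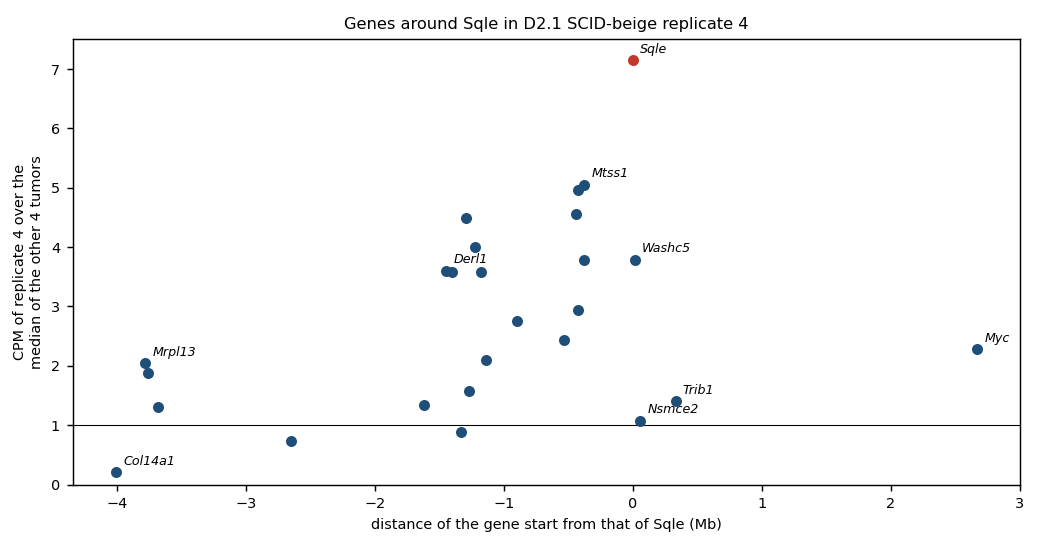
Ratio of the CPM in D2.1 SCID-beige replicate 4 to the median of the other 4 tumors of the group (y axis, from 0, line at 1) for the 26 protein-coding genes within 4 Mb of Sqle with a mean of at least 5 CPM, against the distance of their start from that of Sqle (x axis, Mb). Sqle (red) is at 7.15, Mtss1 before it at 5.05 and the adjacent Washc5 at 3.79, while Nsmce2, Trib1 and Myc further on are at 1.08, 1.41 and 2.29.

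Other genes of lipid metabolism were examined as lists beside the members. Their counts stand beside 24.2% of all genes higher and 20.7% lower in D2.1 cultures. In culture, 1 of 7 other SREBP handling genes was higher in D2.1 and 1 lower, and 1 of 9 nonsterol genes of the mevalonate pathway was higher and 2 lower. Of the genes for sterol esterification, efflux and LXR, 4 of 10 tested were higher and 1 lower, among them Lpcat3, which remodels phospholipids (1.71 ± 0.11, adjusted p = 6.11e-06), and the lysosomal lipase Lipa (1.34 ± 0.28, 0.00421, edgeR). Of 19 other genes of fatty acid and glycerolipid synthesis tested, 6 were higher and 2 lower, with Lpin1 (1.63 ± 0.26) and Dgat1 (1.07 ± 0.17) up and the elongases Elovl4 (-6.20 ± 0.55) and Elovl7 (-1.76 ± 0.40) down. Elovl4 was at 0 to 0.176 CPM in D2.1 cultures, near the floor, and at 5.36 to 6.15 in D2A1. Of 12 fatty acid oxidation genes, 6 were higher and 3 lower, with Slc25a20, the carnitine carrier, at 1.23 ± 0.15 and Ppara at -3.33 ± 0.59. Ppara was at 0.0587 to 0.171 CPM in D2.1 cultures, also near the floor, and at 0.800 to 2.05 in D2A1.

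Between the lines in BALB/c tumors, the lists are read beside 16.8% of all genes higher and 15.8% lower in D2.1. Of the genes for sterol esterification, efflux and LXR, 3 of 11 were higher and 2 lower (1 and 1 without both D2.1 tumors that stood apart), with the cholesterol exporter Abcg1 at 1.40 ± 0.19 (adjusted p = 3.74e-04, edgeR) and at 1.31 without both. Of 21 other genes of fatty acid and glycerolipid synthesis tested, 4 were higher and 5 lower (1 and 3 without both). Among them Mlxipl, which encodes the glucose-responsive factor ChREBP, was at 17.5, 21.2, 28.9 and 1.68 CPM in D2.1 and 0.621, 0.299, 2.72 and 1.04 in D2A1. Its ranges overlapped (3.86 ± 0.83, adjusted p = 0.00526, edgeR, and 4.36 without both). Of the SREBP handling genes, 2 of 7 were higher and 2 lower (2 and 1 without both). Of the nonsterol genes, 0 of 9 were higher and 2 lower (0 and 1 without both), with Pdss1, which makes the side chain of coenzyme Q, at -1.58 ± 0.22 and at -1.46 without both. Of 11 fatty acid oxidation genes tested, 2 were higher and 1 lower (of 12, 0 and 1 without both).

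In SCID-beige tumors, where 17.2% of all genes were higher in D2.1 and 14.8% lower, 3 of 11 genes for sterol esterification, efflux and LXR were higher and 2 lower, with Nr1h3, which encodes LXR alpha, at -1.48 ± 0.26 (adjusted p = 7.07e-04, edgeR). Of the other fatty acid and glycerolipid genes, 1 of 20 was higher and 3 lower. The 1 higher gene, Mlxipl (3.25 ± 1.14, adjusted p = 0.0432, edgeR), was at 25.2 and 16.6 CPM in 2 of the D2.1 tumors and at 0.0591 to 0.638 in the other 3, beside 0.200 to 1.35 in D2A1, and lost its call without any 1 of 7 of the 10 tumors. Of the SREBP handling genes 2 of 7 were higher and 0 lower, of the nonsterol genes 1 of 9 and 0, and of 11 fatty acid oxidation genes 2 and 2.

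In SCID-beige tumors against culture, where 30.8% of all genes were higher and 22.3% lower in D2.1 and 33.6% and 24.5% in D2A1, 5 of the 11 genes for sterol esterification, efflux and LXR were higher and 3 lower in D2.1, and 6 higher and 0 lower in D2A1. Abcg1 (5.76 ± 0.49 in D2.1 and 5.32 ± 0.32 in D2A1) and the exporter Abca1 (2.40 ± 0.41 and 2.06 ± 0.56) were higher, while the members fell. All 7 macrophage markers were higher in the tumors of both lines, and their part in this was not tested. Of the SREBP handling genes, 0 of 7 were higher in either line, and 1 was lower in D2.1 and 2 in D2A1. Of the nonsterol genes, 1 of 9 was higher and 5 lower in D2.1, and 0 higher and 4 lower in D2A1. For other fatty acid and glycerolipid synthesis, 3 of 20 were higher and 8 lower in D2.1 and 4 of 21 higher and 7 lower in D2A1, among them the acyl-CoA synthetase Acsl3 in D2.1 (-1.52 ± 0.19). For fatty acid oxidation, 0 of 11 were higher and 4 lower in D2.1, and 1 of 12 higher and 1 lower in D2A1.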

How the data were processed

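The members and gene lists were chosen with earlier results of these data known. The authors deposited 1 table for cultured cells and 1 for tumors, each with a raw read count and an FPKM value per gene and library. Alignment with STAR to mm10 is named in the submitters' processing notes, while the counting program, annotation and strand setting are not given in the sources used here. In 100.0% of genes of either table the deposited FPKM was the count divided by 1 length per gene and the library total, within 1 percent. That length differed between the tables for 29 of the 33 members (longer in the cells table for 27, by up to 4.09 times), so that FPKM was used only to rank members within a table. Identifiers were matched to GENCODE M21 for gene names and exons. Of the identifiers, 97.77% (cells) and 99.93% (tumors) matched, the rest holding 0.0969% and 0.0059% of counts.

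Counts were analysed in R 4.3.3 with edgeR 4.0.16 (limma 3.58.1): filterByExpr, TMM normalization and the quasi-likelihood test, with Benjamini-Hochberg adjustment over all genes tested and a threshold of 0.05. Each line and host comparison was fitted on its own libraries, and interactions on the 4 groups they join. For comparisons between tables, the raw counts of the 34519 identifiers in both were joined. Errors of log2 fold changes are standard errors, printed after ±. DESeq2 1.42.0, its size factors, other count filters, a 1 log2 limit, 1 fit of all tumors, a replicate block and leaving out each library in turn were tried. The scripts were tested on simulated data. All members were eligible to be named, and of each other list up to 5 called genes per comparison with a log2 fold change beyond 1.

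No replicate pair within a group agreed within sampling noise (38 pairs, chi-square per degree of freedom 5.21 to 133). In culture, replicates 1 and 2 were the closest pair of either line, at 5.21 in D2A1 and 20.9 in D2.1. Against replicate 3 they were at 43.3 and 49.3 in D2A1 and at 62.9 and 72.6 in D2.1. Replicate numbers come from the sample titles, which do not say what they mark. Same-numbered libraries deviated together (every correlation of their deviations from the group means above 0.1) between the lines in culture (0.184 to 0.491) and in BALB/c tumors (0.100 to 0.491) and between D2A1 culture and SCID-beige tumors (0.131 to 0.273). Differently numbered libraries were not compared in this way, so that pairing by number was not shown. In BALB/c tumors of both lines, chi-square per degree of freedom was lowest for replicates 1 and 2 and for replicates 3 and 4. It was 42.5 and 31.6 in D2.1 (other pairs 63.8 to 105) and 20.9 and 26.4 in D2A1 (other pairs 47.5 to 96.6). What this split marks was not tested. Counting intervals and floors cover counting error only.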

Additional observations from a re-analysis of the deposited data

Results flagged for a closer look

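In 8 of 132 groups of 4 or 5 tumors, the highest or lowest tumor stood apart from the others by Dixon's criterion on log2 CPM, where chance gives about 1 in 20. In D2.1 SCID-beige tumors, Lss was highest in replicate 3 (35.4 CPM, others 21.9 to 24.4). Replicate 2 of that group was lowest for Acaca (68.7 CPM, others 97.7 to 110.3) and for the elongase Elovl6 (35.7, others 53.9 to 60.6). In D2A1 SCID-beige tumors, replicate 5 was highest for Scd1 (475 CPM, others 63.2 to 109.5) and Srebf2 (198, others 144 to 155), and replicate 4 was lowest for Cyp51 (71.3, others 110.4 to 123) and Fads2 (22.1, others 38.6 to 47.5). In D2.1 BALB/c tumors, replicate 2 was lowest for Fads2 (26.9 CPM, others 36.1 to 38.3). On CPM without the logarithm, a scale added after seeing the data, 9 groups had such a tumor. Those of Lss, Cyp51, Srebf2, Elovl6 and Scd1 (D2A1) were again among them, and the others were Sqle (377) and Hsd17b7 (23.4) in D2.1 SCID-beige replicates 4 and 3, Scd1 (781) in D2.1 BALB/c replicate 1 and Dhcr7 (42.2) in D2A1 BALB/c replicate 4.

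For 15 genes the change from culture to SCID-beige tumors differed between the lines by the interaction test. As the difference of log2 fold changes (D2.1 minus D2A1), the values in the mevalonate steps were -1.95 for Hmgcs1, -1.46 for Mvk and -1.80 for Pmvk. In the sterol steps they were -1.91 for Fdft1, -1.51 for Lss, -2.12 for Cyp51, -2.04 for Msmo1, -1.87 for Nsdhl, -1.04 for Ebp and -2.31 for Sc5d. In fatty acid synthesis they were 1.06 for Acly, -1.03 for Me1, -0.83 for Fasn, -1.40 for Fads1 and -1.64 for Fads2.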

How the results depend on the processing

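No member changed the direction of a called difference under any alternative run. With the limit of 1 on the log2 fold change, 7 of 13 members called in BALB/c tumors, 3 of 9 in SCID-beige tumors and 12 of 24 between D2A1 culture and SCID-beige tumors were left. In SCID-beige tumors, 15 members were called with the replicate block and 14 in the fit of all tumors, and the cause was not tested. Between the hosts of D2.1, DESeq2 called 1 member (Idi1) and edgeR 0. Where same-numbered libraries did not all deviate together (correlations of -0.161 to 0.344 in SCID-beige tumors, -0.198 to 0.169 and -0.441 to -0.187 between the hosts of D2.1 and D2A1, and -0.136 to 0.0411 between D2.1 culture and tumors), the replicate block gave 0 for the hosts and for line and host, 28 between D2.1 culture and tumors and 16 for line and setting. Between any pair of groups, a library whose number had no partner did not weigh in the blocked difference. With 1 library left out, 28 to 31 members were called in culture, 10 to 14 in BALB/c tumors, 8 to 13 in SCID-beige tumors, 28 to 30 and 21 to 27 between culture and tumors of D2.1 and D2A1, 13 to 17 for line and setting, and 0 to 0 for the hosts and for line and host. By CPM per kilobase, the highest member by FPKM went from rank 1 to 2 (Acly in D2.1 tumors, Ebp in D2A1 tumors) or 3 (Fdps in D2.1 cultures). With 3 to 5 libraries a group, small differences cannot be resolved. Members with low counts (Idi1 and Fdps in tumors) and Sqle, which varied widely in D2.1 SCID-beige tumors, were among the least precise.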
